A study of Homo sapiens with 3 samples.

Results

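The 5 troponin genes TNNT1, TNNT2, TNNI1, TNNI3 and TNNC1 were read from their rows of a merged count table of 32738 genes and followed by day and by cell group. The cells came from chambered cardiac organoids (CCOs), hollow beating structures grown from H7, an established human embryonic stem cell line. Organoids were taken on day 8 (D8), day 14 (D14) and day 21 (D21) of differentiation, with 1 library for each day. Per the labels, all were cultured in a cardiosphere growth medium (CGM) and in RPMI with B27, and none received a treatment. The study places D8 right after organoid formation, D14 after progenitors were expanded in CGM, and D21 after a maturation period. Its methods keep organoids in CGM with growth factors until day 14, and then in RPMI with B27 in a spinner flask. Medium and vessel therefore differ between D14 and D21 and cannot be told apart from the day. Each droplet library counted unique molecular identifiers (UMIs), so that 1 UMI stands for 1 captured RNA molecule read near its 3′ end. Since each day is a single library, a difference between days cannot be told apart from a difference between libraries and is given without a test. Each interval covers counting error only.

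Troponin is the calcium switch of the thin filament in striated muscle. Troponin T anchors the complex to tropomyosin, troponin I holds the filament off, and troponin C binds calcium and releases it. Each subunit has forms that belong to certain muscles: TNNT2 and TNNI3 encode the cardiac troponin T and I of the adult heart, TNNT1 and TNNI1 encode the slow skeletal forms, and TNNC1 encodes the troponin C shared by heart and slow muscle. The fetal heart uses TNNI1 before TNNI3 replaces it.

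Promoter sequences of 3 of the 5 genes were taken from RefSeq (GRCh38.p14), because the promoter set at hand had no entry for TNNI1 and TNNC1. TNNT1 and TNNI3 lie next to each other on chromosome 19 on the same strand. TNNI1 and TNNC1 are named only. Each run is the 250 bases before the start of the gene, on the gene's own strand. Capitals mark AGATAA (the GATA motif, read here as TTATCT on the other strand), CATTCC (the M-CAT motif) or TATAAA (the TATA motif).
TNNT2, chr1:201377681-201377930, minus strand: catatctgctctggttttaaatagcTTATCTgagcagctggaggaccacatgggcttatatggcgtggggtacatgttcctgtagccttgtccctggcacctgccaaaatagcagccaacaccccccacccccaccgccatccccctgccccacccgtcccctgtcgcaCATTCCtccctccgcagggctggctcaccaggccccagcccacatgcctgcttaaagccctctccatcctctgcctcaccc
TNNI3, chr19:55157733-55157982, minus strand: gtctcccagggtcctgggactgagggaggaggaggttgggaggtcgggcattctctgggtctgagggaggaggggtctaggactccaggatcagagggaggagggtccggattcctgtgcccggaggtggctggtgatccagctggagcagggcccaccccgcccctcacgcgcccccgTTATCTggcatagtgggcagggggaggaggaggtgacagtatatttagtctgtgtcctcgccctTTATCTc
TNNT1, chr19:55149207-55149456, minus strand: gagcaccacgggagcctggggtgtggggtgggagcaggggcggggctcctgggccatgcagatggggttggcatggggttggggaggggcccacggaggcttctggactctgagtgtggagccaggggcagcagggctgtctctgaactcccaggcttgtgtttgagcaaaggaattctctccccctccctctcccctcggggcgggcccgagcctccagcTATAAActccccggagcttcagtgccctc
The GATA letters stood 225 bases before the start of TNNT2 and 71 and 7 bases before that of TNNI3, and were not in the TNNT1 window. The M-CAT letters stood 81 bases before TNNT2, and the TATA letters 29 bases before TNNT1. Both strands were searched, and of 35116 promoter windows of this length 9.17% held the GATA letters, 11.9% the M-CAT letters and 10.7% the TATA letters. A MEF2 box (2.80% of windows) and a CArG box (1.16%) were looked for and not matched in these 3 windows. These matches describe letters and say nothing of binding.

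The libraries held 3563, 4615 and 9149 barcodes at D8, D14 and D21. After the study's limits on genes and mitochondrial UMIs, 2657, 3585 and 1946 cells were kept. At D21 that was 21.3% of barcodes, and the median mitochondrial share over all D21 barcodes was 9.57%, close to the limit of 10%. Kept cells held 4007 to 95021 UMIs, with medians of 15316, 12282 and 14105.5. The libraries shared some barcodes, which was the case for 55, 63 and 25 of the kept cells. Clustering gave 18 clusters, of which 15 held at least 90% of their cells from 1 library.

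Clusters were called cardiomyocyte-like (CM-like) from 10 marker genes, none of them a troponin. The class numbered 934 cells on D8, 1111 on D14 and 537 on D21. All 10 markers were detected on each day, with summed levels of 3062, 16439 and 40748 UMIs per 1000000 (CPM). Of 6 measured skeletal muscle markers, 4, 3 and 3 were at 0 UMIs in these cells and the summed level was at most 2.74 CPM. Markers of other cells were read in the class as well. The 8 epithelial markers summed to 1642, 991 and 223 CPM, and the 8 hepatic endoderm markers to 18.1, 116 and 2043. The epithelial sum was lower on each later day, as TNNT1 was, and its part in the TNNT1 levels was not tested.

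The D8 and D14 borders of the CM-like class were not stable. The clustering was repeated at the same settings with 3 other random seeds and with another linear algebra kernel, which changes only rounding. Across the 5 runs the class held 476 to 934 cells at D8, 661 to 1111 at D14 and 535 to 537 at D21, and the run reported here, which was the first one made, gave the widest set on each day. D8 returned 476 to 481 cells in 3 of the 4 repeats and 926 in the other, and D14 returned 661 to 670 in all 4. Nearly every cell of the narrower sets was also in the wider one. The main values for D8 and D14 are therefore given with their range over the 5 runs.

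TNNT2, the cardiac troponin T, was read in CM-like cells at 991 CPM on D8 (95% interval 976 to 1008) and 2833 CPM on D14 (2806 to 2860), reaching 8907 CPM on D21 (8839 to 8976). Over the 5 runs it was 991 to 1757 at D8, 2833 to 3831 at D14 and 8907 to 8951 at D21. The order of the days was the same in each run. With cells gated by at least 4 of the 10 CM markers in place of clusters, TNNT2 was 1993 CPM on D8 and 4934 on D21, and resolution 0.4 gave 607 on D8. The gate took 1092 D21 cells, of which 536 were in the CM-like class, and also gave lower D21 levels of TNNI1 (4504), TNNC1 (4401) and TNNI3 (13.4).

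TNNI1, the slow skeletal and fetal troponin I, was the highest of the 5 genes at D8 and D14. Its level was 2195 CPM on D8 (2171 to 2219) and 6067 on D14 (6028 to 6107), with 7915 on D21 (7851 to 7980). Over the runs the D8 level was 2195 to 3452 and the D14 level 6067 to 7518, so that the D14 and D21 levels came close together in the narrower sets.

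TNNC1, the troponin C of heart and slow muscle, was the lowest of these 3 genes at D8 and D14. It stood at 156 CPM on D8 (150 to 163) and 921.8 on D14 (907 to 937), with 7937 on D21 (7872 to 8002). The runs gave 156 to 283 at D8 and 921.8 to 1276 at D14. At D21 TNNC1, TNNI1 and TNNT2 lay within 7915 to 8907 CPM of each other.

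TNNI3, the adult cardiac troponin I, stayed low on all 3 days. It was at 39.1 CPM on D8 (36.0 to 42.4) and 93.9 on D14 (89.0 to 98.9), with 23.7 on D21 (20.3 to 27.5). The runs gave 39.1 to 42.9, 93.9 to 126 and 20.1 to 23.7 CPM. D14 was the highest day in each run.

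TNNT1, the slow skeletal troponin T, went the other way from TNNT2. It stood at 83.7 CPM at D8 (79.1 to 88.5) and 40.3 at D14 (37.2 to 43.7), and at 1.10 at D21 (0.476 to 2.17), where the CM-like cells held 8 TNNT1 UMIs in all. The runs gave 71.8 to 84.0, 33.9 to 40.3 and 0.554 to 1.10 CPM.

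A gene was counted as higher or lower between successive days where its level differed 2-fold or more and it reached 10 CPM on at least 1 of the days. From D8 to D14, 4 of the 5 troponins were higher and 1 was lower. Among all 9121 genes examined, 11.9% were higher and 2.66% lower. TNNC1 rose 5.90-fold (4.48 to 8.11 over the 5 runs), TNNT2 2.86-fold (2.16 to 3.86), TNNI1 2.76-fold (2.17 to 3.40) and TNNI3 2.40-fold (2.40 to 3.23), and TNNT1 fell 2.08-fold (2.08 to 2.41). These counts of 4 and 1 were the same in the 5 runs. Other settings lost calls. TNNT2, TNNI1 and TNNT1 were all under 2-fold with a mitochondrial limit of 20%, with 3000 variable genes, with all variable genes kept and by the marker gate, and TNNT1 was also under 2-fold at resolution 0.4. TNNC1 and TNNI3 kept their calls under all of these.

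From D14 to D21, 2 troponins were higher and 2 were lower, against 4.98% higher and 15% lower of 9163 genes. TNNC1 rose 8.61-fold (6.25 to 8.61 over the 5 runs) and TNNT2 3.14-fold (2.34 to 3.14). TNNI3 fell 3.96-fold (3.96 to 6.29). Its log2 ratio was -1.99, against -1.56 with a mitochondrial limit of 20% and -2.71 by the marker gate. TNNT1 fell 36.6-fold, a size that rests on 8 UMIs at D21: it was 61.2 to 63.0-fold in the 4 repeats, 142-fold with 3000 variable genes and 13.7-fold by the marker gate. TNNI1 did not reach 2-fold, with a log2 ratio of 0.38, and of 0.08 to 0.38 over the 5 runs. The counts of 2 and 2 held in all 5 runs. By the marker gate the TNNT2 call was lost, at a log2 ratio of 0.98, and TNNI1 turned to -0.28.

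The troponin I pair was dominated by TNNI1 on each day. TNNI3 made up 1.75% of the UMIs of TNNI1 and TNNI3 at D8 (Clopper-Pearson 95% interval 1.61 to 1.90; 579 of 33100 UMIs), 1.52% at D14 (1.45 to 1.60; 1406 of 92285) and 0.299% at D21 (0.256 to 0.347; 172 of 57597). D21 was the lowest day in each run, at 0.252% to 0.299%. The order of D8 and D14 depended on the run: the D8 share was 1.21% to 1.23% in the 3 runs with the narrow D8 set, below their D14 shares of 1.65%. No order of D8 and D14 is therefore read from this share.

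In the troponin T pair, TNNT1 made up 7.79% of the UMIs of TNNT1 and TNNT2 at D8 (7.38 to 8.22; 1241 of 15934), 1.40% at D14 (1.29 to 1.52; 604 of 43038) and 0.0124% at D21 (0.00534 to 0.0244; 8 of 64630). Over the 5 runs these shares were 3.92% to 7.81%, 0.878% to 1.40% and 0.00619% to 0.0124%, in the same order of days each time. The D8 and D14 levels of TNNT1 in CM-like cells were near those of the endothelial-like cells, which were 75.3 and 56.1 CPM, and the part of free RNA in them was not tested. With the endothelial-like level subtracted, the share was 0.865% on D8, 0 on D14 and 0.0132% on D21, so that D14 no longer lay above D21.

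At D21 both TNNC1 and TNNI1 were just below TNNT2, TNNC1 having been far below it and TNNI1 above it at D8 and D14. TNNC1 to TNNT2 was 0.158 on D8 (0.151 to 0.165), 0.325 on D14 (0.319 to 0.332) and on D21 0.891 (0.881 to 0.901). Over the 5 runs it was 0.158 to 0.161, 0.325 to 0.333 and 0.891. It was 0.256 on D14 with a mitochondrial limit of 5% and 0.975 on D21 with a limit of 20%. TNNI1 to TNNT2 was 2.21, 2.14 and 0.889, and 1.96 to 2.22, 1.96 to 2.14 and 0.889 over the runs. UMIs of different genes were set side by side without a length correction, since a 3′ molecule count does not grow with transcript length. How well each gene's RNA was captured was not tested.

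**Figure D1:**
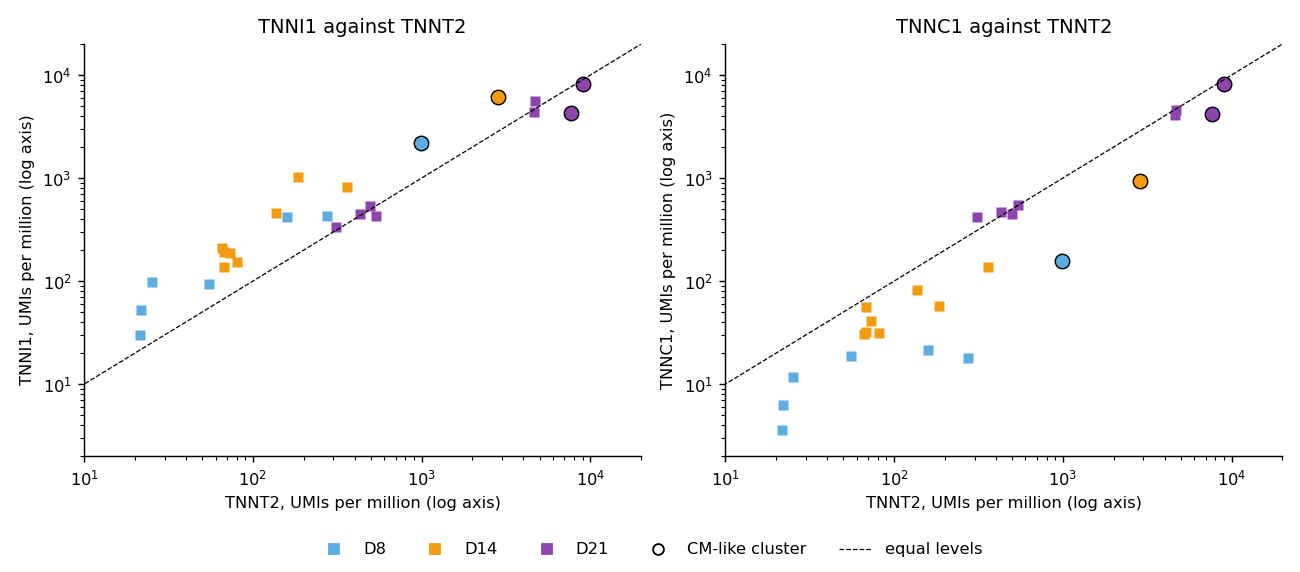
TNNI1 (left) and TNNC1 (right) against TNNT2, both in UMIs per 1000000 on log axes, 1 point per cluster and day, coloured by day, with CM-like clusters ringed and equal levels dashed. The CM-like points of TNNC1 lie below the dashed line at D8 and D14 and near it for the larger D21 cluster; the CM-like ratio at D21 was 0.891.

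Within the CM-like class of D8, the median cell held 234 CPM of TNNT2, with a 25th percentile of 0 and a 75th of 1309. In the 3 runs with the narrow D8 set the median was 1211, with a 25th percentile of 455 to 459. At D14 the median was 2265 (3326 to 3342 in the 4 repeats) and at D21 8471. Median TNNI1 was 1525, 5850 and 7726 CPM, and median TNNC1 was 0, 501 and 7711. In the narrow D8 sets they were 3206 to 3222 and 81.7 to 85.1. The median cell had no TNNI3 UMI on any day.

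To compare shares of cells, each cell was thinned to 4000 UMIs, which left none out. A TNNT2 UMI was then seen in 54.6%, 94.96% and 99.8% of CM-like cells on the 3 days, and a TNNC1 UMI in 21.8%, 75.2% and 99.4%. In the endothelial-like cells, which should lack both, the shares were 6.25%, 28.3% and 76.9% for TNNT2 and 2.08%, 11.3% and 82.1% for TNNC1. A D21 share alone therefore does not set the classes apart; the part of free RNA was not tested. A TNNI1 UMI was seen in 86.8%, 99.0% and 99.8% of CM-like cells and in 6.25%, 34.0% and 76.9% of endothelial-like cells. All 3 of TNNT2, TNNI1 and TNNC1 were seen in 19.5%, 72.5% and 99.1% of CM-like cells, and over the runs in 19.5% to 37.0% on D8 and 72.5% to 87.3% on D14.

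After thinning, a TNNI3 UMI was seen in 12.3%, 21.9% and 5.77% of CM-like cells on the 3 days, against 4.17% of endothelial-like cells on D8. At D14 the endothelial-like count was 0 of 53 cells, and at D21 0 of 39. A floor of 3 cells would be a share of 5.66% at D14 and 7.69% at D21. This floor is a fixed count and not a Clopper-Pearson limit. The D21 share in CM-like cells was below the D21 floor, but above the 1.33% (0.665 to 2.36) of fibroblast-like cells. A TNNT1 UMI was seen in 26.2%, 12.6% and 0.186% of CM-like cells and in 20.8%, 20.8% and 0% of endothelial-like cells, so the D14 share was below that of the endothelial-like cells. Without thinning, CM-like cells held medians of 14424.5, 12297 and 12773 UMIs and endothelial-like cells 15361.5, 11280 and 14378. The unthinned shares of CM-like cells on the 3 days were 72.3%, 99.3% and 100% for TNNT2, 96.0%, 99.8% and 100% for TNNI1, and 40.1%, 91.1% and 100% for TNNC1. They were 38.4%, 43.1% and 12.7% for TNNI3 and 61.0%, 31.9% and 0.745% for TNNT1. The D8 shares moved with the class: over the 5 runs the thinned TNNT2 share was 54.3% to 86.8% on D8, and that of TNNC1 21.8% to 38.7%.

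The variance of thinned TNNI3 UMIs between cells was 2.30 times the mean at D14 and 2.29 times at D21, against 1.22 at D8. The mean itself was 0.368 UMIs per cell at D14 and 0.0819 at D21, so these close ratios do not show a like spread. TNNI3 was held by fewer cells at D21. The 10 cells with the most TNNI3 held 14.4% of its 1406 unthinned UMIs at D14 and 54.7% of 172 at D21. A single D21 cell held 25 of the 172 TNNI3 UMIs, with only 10 UMIs each of TNNT2 and TNNI1. The D21 class included 2 cells that fell in cluster 0, a cluster otherwise of D14 cells. The larger D21 parts, clusters 4 and 17, held 134 and 11 of the 172 TNNI3 UMIs, and 4 and 0 of the 8 TNNT1 UMIs. The rest came from those 2 cells, so the D21 spread of TNNI3 is not read as a trait of D21 cardiomyocytes.

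Outside the CM-like class, TNNT2, TNNI1 and TNNC1 were read in every D21 group. Cluster 16, an unnamed group of 58 cells led by CXCL14, MYL2 and ANK2, and 36 dividing cells of cluster 5 held 4084 to 5580 CPM of each. Cluster 16 had a median doublet score of 0.2138, against 0.0242 to 0.0688 in the other clusters, and whether it holds doublets was not tested. The other groups held 310 to 547. Fibroblast-like cells at D21 had 497 CPM of TNNT2, 539 of TNNI1 and 445 of TNNC1, and endothelial-like cells had 539, 427 and 547. CM-like cells were 17.9-fold above fibroblast-like cells for TNNT2 (17.4 to 18.4), 14.7-fold for TNNI1 (14.3 to 15.1) and 17.8-fold for TNNC1 (17.3 to 18.4). Barcodes of at most 1000 UMIs, which numbered 2185 at D21 and 252 on each of the other days, held 5688 CPM of TNNT2, 3852 of TNNI1 and 4207 of TNNC1 at D21. The part of free RNA in the levels of the other groups was not tested.

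Cluster 1 of D14, an unnamed group of 1049 cells led by CTNNA2, MFAP4 and HOXB4, held TNNI1 without matching troponin T or C. Its levels were 1032 CPM of TNNI1, 184 of TNNT2 and 57.5 of TNNC1. Its ratio of TNNI1 to TNNT2 was 5.60 (5.35 to 5.87), against 2.14 in CM-like cells of the same library. TNNI1 was above TNNT2 in every other D14 group as well, such as cluster 10 (211 and 65.9 CPM) and cluster 6 (193 and 67.6 CPM). The parts of free RNA and of the unstable D14 class border in these levels were not tested.

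TNNT1 was highest outside the CM-like class. Cluster 6, an unnamed group led by PRSS1, TTR and APOA2, held 187 CPM at D8 (176 to 197) and 214 at D14 (201 to 228). Cluster 13, led by SFRP2, POU5F1 and SOX2, held 148 and 143 CPM. TNNT1 was 77.2% and 76.0% of the troponin T pair in cluster 6 and 87.2% in cluster 13 at D8. Every D21 group was at 9.64 CPM or below. Of the 23 neighbouring pairs in the order of 24 groups, 18 could not be separated by their intervals.

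TNNI3 was highest in CM-like cluster 0 of D14, at 94.4 CPM (89.5 to 99.4), the only group whose interval was clear of the next. Cluster 6 followed at 73.3 CPM at D14 and 62.3 at D8, and cluster 13 of D8 was at 54.1. TNNI3 was 39.8% of the troponin I pair in cluster 6 and 50.5% in cluster 13 at D8, where TNNI1 was low.

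A list of 15 other genes, of the thin filament and its partners, was examined in the CM-like cells, and 13 of them reached 10 CPM. From D8 to D14, 6 were higher and 1 was lower, against 11.9% higher and 2.66% lower of all genes examined. Their median log2 ratio was 0.95, against 0.07 over all genes. The higher genes were ACTC1 (cardiac actin, log2 3.13), LMOD2 and TMOD1 (which act at the filament's pointed end, 3.22 and 2.78), MYBPC3 (cardiac myosin-binding protein C of the thick filament, 3.197), FHOD3 (a formin, 2.11) and TNNI3K (a kinase that binds troponin I, 3.71). ACTA1, skeletal actin, fell by 1.43 on the log2 scale. From D14 to D21, 5 were higher and 1 was lower, against 4.98% higher and 15% lower of all genes examined. The median was 0.93, against -0.18 over all genes. ACTC1 (1.26), TPM1 (tropomyosin, 1.75), LMOD2 (1.93), MYBPC3 (2.14) and FHOD3 (1.09) were higher, and TPM3 fell by 1.28. These counts moved over the 5 runs: 6 to 7 were higher and 1 to 3 lower in the first step, and 3 to 5 higher and 1 to 2 lower in the second. The fast skeletal troponins TNNC2, TNNI2 and TNNT3 did not exceed 11.8 CPM in CM-like cells on any day. Only TNNC2 reached 10 CPM. It was 3.24-fold higher from D8 to D14 (54 to 177 UMIs) and 7.79-fold lower from D14 to D21 (177 to 11 UMIs).

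Over the 24 groups, the genes whose levels were most like those of each troponin were listed by Pearson's r of log2 levels, as a description over groups that share libraries. For TNNT2 these were MYL4, MYH6, PLN, ACTN2 and MYL7 (0.98 to 0.97). For TNNI1 they were MYH6, MYL4, CTD-2545M3.8, TNNT2 and ACTC1 (0.97 to 0.95), and for TNNC1 MYL3, MYBPC3, FITM1, POPDC2 and ACTN2 (0.99 to 0.96). For TNNT1 they were WFDC2, HMGA1, TCEA1, RPL17 and PRTG (0.95 to 0.90), and for TNNI3 FBXO2, CXADR, SPINT2, KRT19 and TET1 (0.84 to 0.77). Each list was drawn from a pool of 3047 genes, so lists without a shared gene are not read as a result. TNNT1 and TNNI3 were related to each other at r = 0.71. TNNT1 was at -0.86 with TNNC1, -0.78 with TNNT2 and -0.64 with TNNI1. TNNI3 was at -0.34, -0.22 and -0.05 with the same 3 genes. PLN, MYL4 and MYL7 are among the markers that named the CM-like class.

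LAD1 overlaps TNNT2 on the same strand in GENCODE, and its level in CM-like cells was 65.9, 178 and 359 CPM on the 3 days, and how reads in the shared stretch were divided between them was not tested. The TNNI3 level of marker-gated cells also varied with their mitochondrial share. Among marker-gated D14 cells it was 66.5 CPM below 5% mitochondrial UMIs, 110 from 5% to 10% and 150 from 10% to 20%. At D21 it was 15.0 CPM from 5% to 10%, 39.8 from 10% to 20% and 55.7 above 20%. The limit of 10% leaves out the latter 2 ranges, which held 1531 and 318 gated D21 cells against 750 from 5% to 10%. Whether those cells differ for a biological or a technical reason was not tested. The gate also took cells outside the CM-like class: of 1092 gated D21 cells under the limit, 536 were in it. Their TNNT2 was 4934 CPM, against 8907 in the class. In the class TNNI3 was 23.7 CPM at D21, and 34.7 with a mitochondrial limit of 20%. The part of this mix of cells in the values by range was not tested.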

How the data were processed

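Single-cell suspensions were captured with the 10x Chromium 3′ v2 kit. The deposited file holds unnormalized UMI counts, with the 3 libraries merged by the authors; per the submitters' processing notes Cell Ranger, Seurat 3.2.1 and hg19 were used. The study's limits kept barcodes between 2000 and 7500 genes, with a mitochondrial share below 10%. Counts were clustered with Seurat 5.3.0 (R 4.3.3; 2000 variable genes less 40 the study names, 20 principal components, resolution 0.8), and clusters were named from marker lists; the naming thresholds were set after seeing the data. UMIs were summed per group and day and divided by the group total (CPM). Intervals were exact Poisson, Clopper-Pearson or binomial-split, at 95%. With 1 library per day there were no replicates and no tests.

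The reported clustering used the OpenBLAS Haswell kernel and seed 0, the settings of the first run. Its dependence on both was seen afterwards: another kernel (Sandybridge) and seeds 1, 2 and 3 were added after seeing the data, and the reported run was not changed. The caller for doublets marked 6, 1 and 7 cells, too few to have worked, so the top 5% of scores were removed as an alternative. On simulated counts, 99% (D14 over D8, 8250 genes) and 100% (D21 over D14, 8900 genes) of 3-fold changes were recovered. These counts carried counting error only, and the 3-fold changes were called at 2-fold. Differences between libraries, between cells and in class borders were not simulated, so the recovery says nothing of them. Named genes were the 5 members, the thin filament and fast troponin lists, annotated neighbours, and the 5 genes most like each member. The members and lists were chosen with earlier results of these data known.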

Additional observations from a re-analysis of the deposited data

How the results depend on the processing

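Of 948 alternative values for 59 results, 516 stayed within the counting interval or 1.5 times the count, 432 moved and 0 reversed a called direction. Reversal was read only for troponin log2 ratios of 2-fold or more in the reported run, not for levels, shares or orders of days. Of 173 alternative log2 ratios of the troponins, 1 changed sign, that of TNNI1 from D14 to D21 with CMs by gate. Many of the moves came with a change in which D8 and D14 cells were called CM-like, and the cause of those was not tested. Subtraction of the endothelial-like level took TNNT1 from 83.7 to 8.47 CPM at D8 and from 40.3 to 0 at D14. The TNNI3 percent of the troponin I pair at D8 was 1.26 and at D14 1.253 with a mitochondrial limit of 5%, and with a limit of 20% it was 1.21, 1.62 and 0.450 at D8, D14 and D21. It was 2.52 at D8 at resolution 0.4, and 1.21, 1.64 and 0.255 at resolution 1.2. At D8 it was 1.26 with 3000 variable genes, 1.198 with all variable genes kept, 1.26 with CMs by gate and 1.35 with the endothelial-like level subtracted. The mean over cells gave 2.16 at D8 and 0.4996 at D21. At the same settings, the other linear algebra kernel gave 1.21, 1.65 and 0.252, clustering seed 1 gave 1.21, 1.65 and 0.252, seed 2 gave 1.23, 1.65 and 0.252, and seed 3 gave 1.66 at D14 and 0.252 at D21. Leaving out small cluster parts, also added after seeing the data, gave 0.252 at D21. The TNNT1 percent of the troponin T pair at D8 and D14 was 4.96 and 0.933 with a limit of 5%, 3.89 and 1.27 with 20%, 12.99 and 1.88 at resolution 0.4, and 3.9003 and 0.891 at resolution 1.2. It was 4.12 at D8 and 0.00309 at D21 with 3000 variable genes, 3.78 at D8 with all variable genes kept, and 3.15, 1.69 and 0.0633 with CMs by gate. The mean over cells gave 5.90, 1.80 and 0.0708, and subtraction of the endothelial-like level gave 0.865 and 0 at D8 and D14. The other kernel gave 3.92 and 0.893, seed 1 gave 3.95 and 0.893, seed 2 gave 3.95 and 0.878, and seed 3 gave 0.905 at D14. From D8 to D14, the troponins 2-fold or more higher were 2 in place of 4 and those lower 0 in place of 1 with a limit of 20%, 3000 variable genes, all variable genes kept and CMs by gate, and those lower were 0 at resolution 0.4. From D14 to D21, those higher were 1 in place of 2 with CMs by gate, under which the TNNI1 log2 ratio was -0.28. Without the filter on low genes, 3393 genes were higher and 2921 lower from D8 to D14 (1084 and 243 with it), and 2408 higher and 4381 lower from D14 to D21 (456 and 1377). With CMs by gate, 159 genes were lower from D8 to D14. The limit of 5% left 1 CM-like cell at D21 and gave no value there. No paired analysis was possible because each day is 1 library, and for the same reason no replicate could be left out.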
